A study of Mus musculus with 12 samples.

Results

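The response of mouse ear fibroblasts to substrate stiffness was measured on elastic alginate gels, which hold their stress under load because the polymer is crosslinked covalently. It rests on 6 of the 12 RNA samples of the study, 3 on 20-kPa elastic gels and 3 on 2-kPa elastic gels, chosen by their labels. The other 6 samples came from viscoelastic gels of the same stiffnesses, whose ionic crosslinks relax slowly. They were fitted together with the elastic samples and share in the gene filter, the scaling and the estimate of spread. Beyond that they enter only where the elastic response is set against them. All groups were primary fibroblasts from the ears of 1-month-old C57BL/6 mice of both sexes, used at passage 2 and kept for 48 h on gels carrying the adhesion peptide RGD, so that a gel's crosslinking and stiffness were what differed between groups. The study calls the 3 samples of a group biological replicates, but the labels do not tie them to separate mice or cultures. The p-values therefore measure the spread between samples within groups, estimated over all 12.

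Fibroblasts pull on the material they adhere to through integrins, which connect the matrix to actin and myosin inside the cell. On a stiff material the adhesions grow, actin assembles into stress fibres, and actin monomers that otherwise hold back the cofactor MRTF are used up, so that MRTF can act with the transcription factor SRF on genes of the contractile apparatus. The coactivators YAP and TAZ enter the nucleus under the same conditions and act with TEAD factors on genes of growth and adhesion. In skin and other connective tissue these pathways are best known from wound repair and fibrosis, where stiffened matrix and contractile myofibroblasts occur together.

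Counts per gene, deposited raw by the authors, summed to between 36626221 and 43612804 in the elastic samples. Of the 33246 genes listed, 14542 had enough counts to be tested. Levels are given as TMM-normalized CPM, counts scaled to a common library total, which are not scaled by gene length and are compared only within a gene. Fibroblast markers summed to between 25300 and 26500 CPM on 2-kPa and between 23800 and 25800 CPM on 20-kPa elastic gels, and the defining genes of leukocytes, endothelium, melanocytes and muscle lay near 0. Cartilage genes were also present. The 10 chondrocyte markers summed to between 4930 and 6350 CPM at 2 kPa and between 4580 and 4630 CPM at 20 kPa, and 5 of the 9 that could be tested were called lower at 20 kPa. Acan, the proteoglycan of cartilage, measured 1282, 1611 and 1476 CPM at 2 kPa and 964, 1033 and 1090 CPM at 20 kPa. In bulk RNA fewer cells of a type cannot be told apart from less RNA per cell.

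Stiffening the elastic gel from 2 to 20 kPa changed the level of 2029 genes at a Benjamini-Hochberg (BH) adjusted p under 0.05, of which 991 were higher and 1038 lower. That is 14.0% of the genes tested, 6.81% called higher and 7.14% called lower, and these shares are the background for every list below. The changes were mostly small. The median absolute log2 fold change of the called genes was 0.384, and 73 of them rose and 103 fell by at least 2-fold, 0.502% and 0.708% of the genes tested. The 3 samples of each stiffness did not overlap for 1993 of the called genes, which is 98.2% of them, against 35.6% of all genes tested. Leaving out 1 sample at a time moved the count of called genes to between 1063 and 1898. It fell to 1167 without 2-kPa replicate 1, to 1341 without 2-kPa replicate 2 and to 1063 without 20-kPa replicate 3, and no called gene changed direction in any of these fits. The balance of directions depended on the processing, with 1176 genes higher and 907 lower after a correction for gene length and GC content and 1226 higher and 1066 lower by DESeq2. Called genes had a median GC content of 48.1% where higher and 52.3% where lower, against 50.1% for all tested genes. Counts of 3 or fewer members of a list moved by up to 3 when single samples were left out, and larger counts that moved by over 1.5-fold are given with the list.

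**Figure D1:**
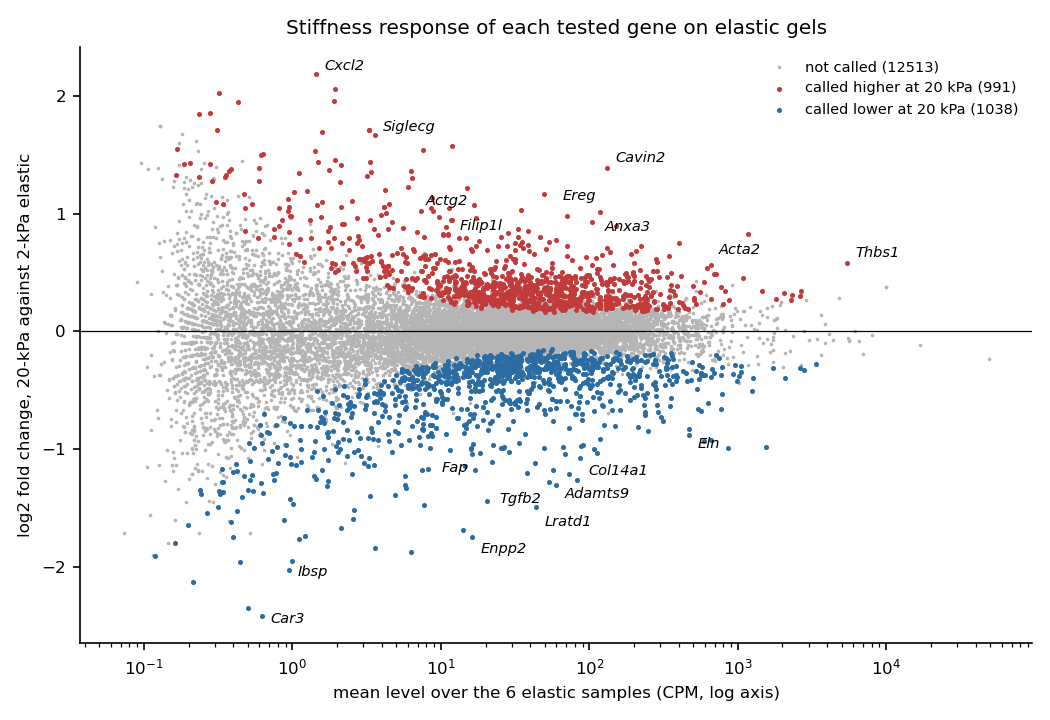
Each point is 1 of the 14542 tested genes, with its mean level over the 6 elastic samples in CPM on a log axis and its log2 fold change between 20-kPa and 2-kPa elastic gels. Red points are the 991 genes called higher and blue points the 1038 called lower at 20 kPa, and most called genes changed by less than 1 on the log2 scale.

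Contractile genes were higher on the stiff gel. Of the 35 tested genes on the list of SRF targets and contractile proteins, 20 were called higher and none lower, with a median log2 fold change of 0.30 against -0.01 for all tested genes. Actg2, the gamma actin of smooth muscle, measured 11.9, 11.8 and 11.3 CPM at 2 kPa and 20.7, 21.8 and 26.0 CPM at 20 kPa. Acta2, the actin that defines myofibroblasts, measured 563, 530 and 491 CPM at 2 kPa and 722, 795 and 829 CPM at 20 kPa. The 3 stiff samples lay above the 3 soft ones for both genes, with log2 fold changes of 0.97 ± 0.11 (SE, adjusted p = 6.63e-05) for Actg2 and 0.57 ± 0.08 (adjusted p = 0.000451) for Acta2. Tagln, an actin-bundling protein of smooth muscle, rose from 23.9, 24.0 and 22.5 CPM to 34.0, 39.9 and 44.8 CPM, a log2 fold change of 0.75 ± 0.10 (adjusted p = 0.000257). Cnn1, which encodes the actin-binding protein calponin, rose by 0.60 ± 0.08 on the log2 scale and Lmod1, an actin nucleator of smooth muscle, by 0.83 ± 0.11. Tpm2, a tropomyosin that lines actin filaments, rose by 0.50 ± 0.07 and Fhl1, a LIM-domain protein of muscle, by 0.55 ± 0.07. Srf itself measured 27.6, 25.1 and 23.2 CPM at 2 kPa and 26.4, 28.5 and 31.2 CPM at 20 kPa, and its difference did not pass the test (adjusted p = 0.147). The count of members called higher lay between 16 and 21 when samples were left out singly. Of the smooth muscle and pericyte markers, Myh11 rose from 1.02, 1.54 and 0.879 CPM to 3.48, 2.26 and 3.50 CPM, while Notch3 was lower at 20 kPa and the 6 markers summed to between 473 and 554 CPM at 2 kPa and between 375 and 510 CPM at 20 kPa. The part of such cells in the contractile result was not tested.

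Filip1l had the lowest p of all genes that rose. It encodes a filamin A-interacting protein and lies on chr16:57353093-57573126 of GRCm38. Its levels were 25.2, 26.4 and 27.1 CPM at 2 kPa and 45.5, 41.8 and 45.7 CPM at 20 kPa, so that both groups were tight and well separated. The log2 fold change was 0.76 ± 0.07 (adjusted p = 2.65e-05). SRF binds the CArG box, a sequence with an A/T-rich core between a pair of C and a pair of G. Both strands were searched in the 250 bases before each RefSeq transcript start, of which a gene can have several. The box was found in 1.47% of 32851 such windows. Of the tested genes with a window, 1.38% had it in any of theirs. Of the contractile list, 32 genes had a window. The box was present in 6 of the 17 called higher and in 3 of the other 15. The windows of 3 of those that rose are printed here in the direction of the gene, from RefSeq on GRCm38.p6, because they hold the box in genes of the list that rose. Capitals mark the box, whose first base lies 62 bases before a RefSeq start in Filip1l, 73 before that of Acta1 and 102 before a RefSeq start in Fhl1. Filip1l and Fhl1 each have 2 RefSeq starts, and those shown are internal, 196149 and 47896 bases inside the gene as GENCODE annotates it. The counts do not tell the transcripts of a gene apart.
Filip1l, chr16:57549155-57549214, plus strand: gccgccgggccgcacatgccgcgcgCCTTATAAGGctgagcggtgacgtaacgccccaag
Acta1, chr8:123894814-123894873, minus strand: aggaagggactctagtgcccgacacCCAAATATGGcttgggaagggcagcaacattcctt
Fhl1, chrX:56779556-56779615, plus strand: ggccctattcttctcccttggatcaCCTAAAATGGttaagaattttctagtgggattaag
Acta1, the actin of skeletal muscle, measured 5.48, 4.09 and 5.55 CPM at 2 kPa and 5.65, 8.58 and 10.0 CPM at 20 kPa, with a log2 fold change of 0.68 ± 0.19 (adjusted p = 0.0252). The motif was chosen after the responses were known, and its presence is a description of the sequence and no evidence of binding.

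The targets of YAP and TEAD changed in part. Of 23 tested, 6 were called higher and 2 lower, with a median log2 fold change of 0.13. These are 26.1% and 8.7% of the list, beside 6.81% and 7.14% of all tested genes. Ankrd1, an ankyrin-repeat protein of the sarcomere and nucleus, measured 3.29, 3.97 and 3.82 CPM at 2 kPa and 7.05, 8.42 and 11.9 CPM at 20 kPa, a log2 fold change of 1.30 ± 0.17 (adjusted p = 0.000269). The matricellular genes Ccn1 and Ccn2, the most used readouts of YAP, also lay higher in every stiff sample. Ccn1 measured 715, 801 and 836 CPM at 2 kPa and 1086, 840 and 1175 CPM at 20 kPa, but its log2 difference of 0.40 ± 0.15 did not pass the test (adjusted p = 0.0876). Ccn2 measured 1978, 2527 and 2675 CPM against 3251, 2781 and 2883 CPM, and its difference of 0.31 ± 0.12 missed it too (adjusted p = 0.0953). Amotl2, an inhibitor of YAP that YAP itself induces, rose by 0.47 ± 0.08 on the log2 scale, the receptor kinase Axl by 0.64 ± 0.10 and F3, tissue factor of the clotting cascade, by 0.57 ± 0.12. Tgfb2 went the other way, from 102, 74.3 and 50.7 CPM to 28.6, 27.6 and 37.5 CPM.

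Actin regulators and adhesion proteins changed in part. Of 43 actin assembly genes, 11 were called higher and 2 lower, and the count of those higher fell to 4 without 20-kPa replicate 3, to 6 without 2-kPa replicate 3 and to 7 without 2-kPa replicate 2. Tmsb4x, which holds actin monomers, measured 172, 182 and 185 CPM at 2 kPa and 256, 259 and 260 CPM at 20 kPa, a log2 fold change of 0.53 ± 0.07 (adjusted p = 0.000264). The formin Diaph1 rose by 0.32 ± 0.07 and the kinase Rock2 by 0.39 ± 0.10, while Enah, an elongation factor at filament ends, fell by 0.40 ± 0.07. Of 33 focal adhesion adaptors and kinases, 5 were called higher and 3 lower. The count higher was 3 without any single sample other than 20-kPa replicate 1, and 8 by DESeq2 and 10 with the length and GC correction. Zyx, zyxin of stress fibres and mature adhesions, rose from 181, 163 and 157 CPM to 233, 228 and 233 CPM, a log2 fold change of 0.47 ± 0.06 (adjusted p = 0.000295). The 3 lower members were Tns1, Tns2 and Tns3, tensins that connect integrins to actin, at log2 fold changes of -0.38, -0.31 and -0.26. Vinculin (Vcl) measured 240, 234 and 209 CPM at 2 kPa and 251, 266 and 301 CPM at 20 kPa and did not pass the test (adjusted p = 0.192). Of 18 integrin subunits, Itga3 and Itgb7 were called higher and Itga10 lower. Itga10, a collagen receptor best known from cartilage, dropped from 39.2, 33.6 and 33.3 CPM to 18, 18.6 and 17.4 CPM beside the lower cartilage markers given above, whose part in it was not tested.

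Caveolae, the membrane pits that flatten under tension, had 4 of their genes called higher in a list of 21 that also held mechanosensitive channels. This count was 1 without 20-kPa replicate 3 and 2 without 2-kPa replicate 1 or 2-kPa replicate 3. Cavin2, which shapes the caveolar coat, measured 63.8, 84.2 and 68.8 CPM at 2 kPa and 145, 172 and 251 CPM at 20 kPa. Its log2 fold change of 1.39 ± 0.20 (adjusted p = 0.000505) was several times that of Cav1 (0.28 ± 0.07) and Cavin1 (0.26 ± 0.07), the other coat genes. The channel gene Trpv4 was the only member called lower, by 0.49 ± 0.12 on the log2 scale.

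**Figure D2:**
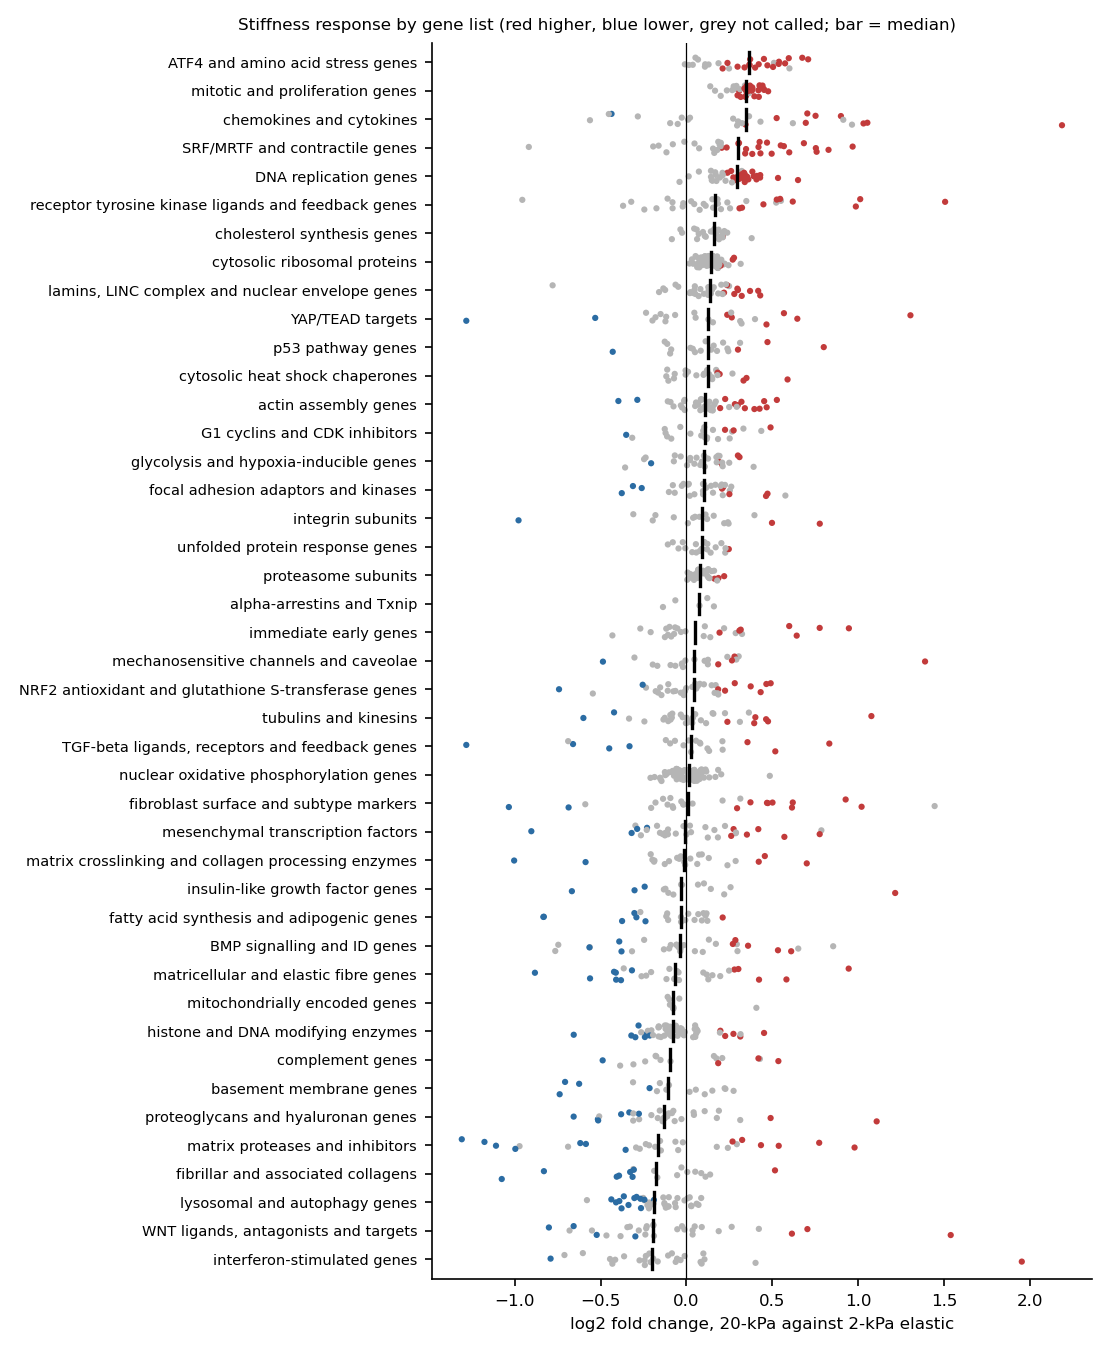
Each point is a tested gene of 1 of 43 lists, placed at its log2 fold change between 20-kPa and 2-kPa elastic gels, with red for called higher, blue for called lower and grey for not called. Black bars are list medians, which ran from -0.20 for interferon-stimulated genes to 0.37 for ATF4 and amino acid stress genes.

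Genes of the cell cycle were higher on the stiff gel almost throughout. Of 43 DNA replication genes, 26 were called higher and none lower, 42 had a positive log2 fold change, and the median was 0.29. Of 36 mitotic genes, 25 were called higher and none lower, all 36 had a positive log2 fold change, and the median was 0.35. Single changes were modest, with no mitotic gene above 0.48 on the log2 scale. Rrm2, a subunit of the reductase that makes deoxynucleotides, measured 93.2, 92.8 and 90.4 CPM at 2 kPa and 122, 132 and 146 CPM at 20 kPa, a log2 fold change of 0.53 ± 0.08 (adjusted p = 0.000946). Orc1, of the complex that marks replication origins, rose from 5.90, 6.54 and 7.58 CPM to 9.46, 9.69 and 12.2 CPM, a log2 fold change of 0.65 ± 0.11 (adjusted p = 0.00187). The replicative helicase subunit Mcm3 rose by 0.41 ± 0.07 and the sliding clamp Pcna by 0.26 ± 0.07. Among mitotic genes, Kif2c, a kinesin that takes microtubules apart, rose from 43.5, 43.1 and 43.0 CPM to 56.1, 57.7 and 63.0 CPM. Tpx2, a spindle assembly factor, rose from 141, 148 and 140 CPM to 190, 183 and 203 CPM. In each of these genes replicate 3 was the highest of the stiff samples. Mki67, the usual proliferation marker, measured 467, 486 and 427 CPM at 2 kPa and 555, 521 and 670 CPM at 20 kPa, and its log2 difference of 0.34 ± 0.11 missed the test (adjusted p = 0.0534).

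The counts depended on single samples more than the directions did. Without 20-kPa replicate 3 the DNA replication genes called higher numbered 9 and the mitotic genes 12. Without 2-kPa replicate 2 there were 12 replication genes and without 2-kPa replicate 3 there were 13, with 14 mitotic genes in the latter fit. Among the regulators of G1, 3 of 23 were called higher, with Ccnd1, cyclin D1, from 172, 165 and 156 CPM to 203, 212 and 278 CPM (log2 fold change 0.49 ± 0.11, adjusted p = 0.0103). The inhibitor Cdkn2b was the only member called lower. Nuclear envelope and pore genes, which dividing cells need for rebuilding the nucleus, had 9 of 38 called higher and none lower. They included Lmnb1, lamin B1, at 47.6, 47.3 and 46.4 CPM against 63.2, 59.8 and 65.8 CPM, Tmpo, the lamina-associated protein LAP2, and Lbr, the lamin B receptor. This count fell to 4 without 20-kPa replicate 3 and to 5 or 6 without a single 2-kPa sample. Lmna, which encodes lamins A and C and is known to scale with tissue stiffness, measured 561, 561 and 515 CPM at 2 kPa and 569, 578 and 639 CPM at 20 kPa. Its difference of 0.13 ± 0.08 on the log2 scale did not pass the test (adjusted p = 0.322).

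Amino acid and serine synthesis genes under ATF4, the transcription factor of the integrated stress response, had the highest median of the 43 lists. Of 30 tested, 18 were called higher and none lower, with a median log2 fold change of 0.37, and the number called lay between 11 and 19 with single samples left out, at its lowest without 20-kPa replicate 3. Atf4 itself rose from 144, 188 and 169 CPM to 204, 217 and 241 CPM, a log2 fold change of 0.40 ± 0.09 (adjusted p = 0.00655). Psat1, of serine synthesis, rose from 103, 115 and 102 CPM to 142, 170 and 197 CPM, a log2 fold change of 0.67 ± 0.10 (adjusted p = 0.000635). Phgdh, the first enzyme of the same pathway, rose by 0.57 ± 0.09, the pseudokinase Trib3 by 0.59 ± 0.10 and the mitochondrial folate enzyme Mthfd2 by 0.54 ± 0.12. Asns, asparagine synthetase, measured 58.6, 82.1 and 70.1 CPM at 2 kPa and 89.3, 102 and 115 CPM at 20 kPa, and the lowest stiff sample exceeded the highest soft one. The C/EBP-ATF element through which ATF4 acts was searched as TGATGNAA on both strands, and 3.45% of all such windows held it. Of the tested genes with a window, 2.47% had it in any of theirs. The element was found in 5 of the 15 called members of the list with a window and in 4 of the other 9. It was likewise chosen with the responses known, and its presence is no evidence of binding. The Asns window is shown with the element in capitals, beginning 23 bases before the start, since it lies nearest to a RefSeq start among those 5.
Asns, chr6:7693210-7693257, minus strand: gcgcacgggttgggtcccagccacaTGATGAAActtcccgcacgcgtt
Of 21 genes of the unfolded protein response in the endoplasmic reticulum, Herpud1 alone was called, at a log2 fold change of 0.25. Among 24 chaperones listed as cytosolic 5 were called higher, 10 by DESeq2, and 3 when a single 2-kPa sample or 20-kPa replicate 3 was left out. The 5 included Hspd1, which is mitochondrial. Hsph1, an HSP110 chaperone, was also called, from 201, 249 and 233 CPM to 352, 338 and 336 CPM (log2 fold change 0.59 ± 0.07, adjusted p = 0.00018).

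Several secreted growth factors rose. In the list of receptor tyrosine kinase ligands, receptors and feedback genes, 9 of 34 were called higher and none lower. The count fell to 5 without 20-kPa replicate 3 and to 6 without 2-kPa replicate 3. Ereg, an EGF receptor ligand, measured 77.5, 83.6 and 72.9 CPM at 2 kPa and 115, 129 and 227 CPM at 20 kPa, a log2 fold change of 1.01 ± 0.19 (adjusted p = 0.00319). Areg, a related ligand, was scarce, at 0.309, 0.367 and 0.302 CPM against 0.840, 0.570 and 1.41 CPM. Both were highest in 20-kPa replicate 3, and neither gene overlapped between the groups. Fgf10, a ligand for epithelial FGF receptors, rose from 2.24, 3.16 and 2.61 CPM to 4.88, 4.65 and 6.34 CPM, while Hgf, hepatocyte growth factor, rose by 0.32 ± 0.07 on the log2 scale. Of 26 immediate early genes, which answer growth signals within minutes, 7 were called higher and none lower, 13 had a log2 fold change below 0 and the median was 0.05. The count was 4 without 20-kPa replicate 3. The calls included the Krüppel-like factor Klf4 from 45.6, 45.1 and 41.0 CPM to 70.3, 65.7 and 89.5 CPM (log2 fold change 0.77 ± 0.10, adjusted p = 0.000259). Klf2, a related factor, rose by 0.64 ± 0.11, and Maff, a small partner of bZIP factors, from 7.67, 7.91 and 8.59 CPM to 13.9, 15.1 and 17.6 CPM.

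Some inflammatory messengers rose on the stiff gel. Of 27 chemokines, cytokines and their regulators, 9 were called higher, 1 lower and 17 neither, and the median log2 fold change was 0.34. Il6, the cytokine of the acute phase, measured 5.26, 9.40 and 7.47 CPM at 2 kPa and 18.8, 13.9 and 13.2 CPM at 20 kPa, a log2 fold change of 1.05 ± 0.21 (adjusted p = 0.00496). The neutrophil chemokine Cxcl1 rose from 20.6, 24.7 and 22.6 CPM to 58.3, 30.1 and 50.2 CPM, a log2 fold change of 1.03 ± 0.21 (adjusted p = 0.00483). Its neighbour Cxcl2 had the largest fold change of the genes that rose with at least 1 CPM in the higher group, 2.18 ± 0.44 (adjusted p = 0.0044), on levels of 0.548, 0.490 and 0.522 CPM against 2.52, 0.958 and 3.67 CPM. In both chemokines replicate 2 was the lowest of the stiff samples and still lay above every soft sample. Csf1, the growth factor of macrophages, rose from 325, 303 and 273 CPM to 437, 449 and 630 CPM, and Nfkbia, the inhibitor that NF-kappaB induces, from 25, 24.6 and 23.1 CPM to 41.0, 27.8 and 48.9 CPM. The leukocyte markers summed to between 5.67 and 7.37 CPM in the 6 samples, with Tyrobp and Cd52 at 0. The kappaB site occurred on either strand in 3.90% of all windows before RefSeq starts. Of the tested genes with a window, 5.48% had it in any of theirs. The site was present in 5 of the 6 called members with a window (Cxcl1, Cxcl2, Il6, Csf1 and Nfkbia) and in 3 of the other 15. This motif too was chosen with the responses known, and its presence is no evidence of binding. Those of the chemokines and Il6, which changed most, are printed with the site in capitals, at 71, 97 and 44 bases before the start.
Cxcl1, chr5:90891149-90891208, plus strand: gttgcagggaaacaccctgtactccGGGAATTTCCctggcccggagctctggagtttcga
Cxcl2, chr5:90903777-90903836, plus strand: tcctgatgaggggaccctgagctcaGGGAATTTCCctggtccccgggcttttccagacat
Il6, chr5:30013045-30013104, plus strand: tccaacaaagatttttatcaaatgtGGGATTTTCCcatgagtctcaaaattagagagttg
The site in Cxcl1 and Cxcl2 had the same 10 bases. Of 28 interferon-stimulated genes, 1 was called higher and 1 lower, with a median of -0.20.

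Among genes of TGF-beta, BMP, WNT and insulin-like growth factor signalling, calls went in both directions. In that order 14.3%, 16.1%, 10.0% and 6.67% of the lists were called higher, beside 6.81% of all tested genes. Called lower were 19.0%, 9.68%, 13.3% and 20.0%, beside 7.14%. Of 15 insulin-like growth factor genes 1 was called higher and 3 lower. Of 21 TGF-beta genes 3 were called higher and 4 lower. The inhibitory Smad7 rose by 0.35 ± 0.08. The ligands Tgfb1 and Tgfb2 and the induced matrix gene Tgfbi fell, Tgfb1 from 72.4, 59.7 and 52.8 CPM to 42.0, 43.3 and 50.3 CPM and Tgfbi by 0.66 ± 0.11 on the log2 scale. The count of BMP genes called higher was 5 of 31, but 2 without 2-kPa replicate 1, 2-kPa replicate 3 or 20-kPa replicate 2 and 3 without 20-kPa replicate 1 or 20-kPa replicate 3. A further 3 were called lower, with the antagonist Fst (0.61 ± 0.10) among the first and the ligand Bmp5 (-0.39 ± 0.06) and the modulator Bmper (-0.38 ± 0.07) among the second. Of 30 WNT genes 3 were called higher and 4 lower, the latter 7 by DESeq2, 7 without 20-kPa replicate 1 and 2 without 20-kPa replicate 2. Dkk2, an antagonist of WNT receptors, measured 5.31, 3.31 and 2.99 CPM at 2 kPa and 11.7, 9.19 and 13.1 CPM at 20 kPa, a log2 fold change of 1.54 ± 0.27 (adjusted p = 0.00193). Nkd2, an inhibitor of the pathway inside the cell, rose from 8.55, 9.26 and 8.57 CPM to 14.8, 14.9 and 13.2 CPM with the second lowest p of the genes that rose. Axin2, the usual target gene of beta-catenin, fell from 4.95, 4.38 and 4.45 CPM to 3.48, 2.90 and 3.23 CPM (log2 fold change -0.52 ± 0.13, adjusted p = 0.0156). Frzb, a secreted WNT antagonist of cartilage, fell by 0.80 ± 0.11 on the log2 scale. Igf1 fell from 174, 167 and 179 CPM to 110, 107 and 111 CPM (log2 fold change -0.67 ± 0.10, adjusted p = 0.000657), whereas Pappa2, a protease that frees IGF from its binding proteins, rose from 5.40, 12.9 and 9.06 CPM to 21.8, 23.2 and 18.3 CPM.

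Matrix genes were more often lower than higher on the stiff gel. Of 18 fibrillar and associated collagens 7 were called lower and 1 higher, with a median log2 fold change of -0.18. The count lower was 3 without 2-kPa replicate 2 and 3 without 20-kPa replicate 2. Collagen I genes were among those not called. Col14a1, a collagen that coats fibrils, measured 114, 116 and 124 CPM at 2 kPa and 58.0, 58.3 and 51.3 CPM at 20 kPa, so that the stiff samples held about the same low level. Its log2 fold change was -1.07 ± 0.09 (adjusted p = 7.19e-06). Col27a1, a fibrillar collagen of cartilage, fell by 0.83 ± 0.14 and Col6a1, of the microfibrils around cells, by 0.33 ± 0.08. In the basement membrane list 4 of 16 were called lower and none higher, with Nid2, nidogen 2, from 286, 302 and 294 CPM to 188, 180 and 172 CPM and Agrn, agrin, from 313, 268 and 268 CPM to 184, 182 and 184 CPM. Elastin (Eln) fell from 552, 649 and 621 CPM to 282, 305 and 402 CPM, a log2 fold change of -0.88 ± 0.20 (adjusted p = 0.00886). Ltbp4, which elastic fibre assembly needs, fell by 0.56 ± 0.06. Of 29 matricellular and elastic fibre genes 5 were called higher and 7 lower, with a median of -0.07. The count higher was 3 without 2-kPa replicate 3 and 3 without 20-kPa replicate 3, and 8 with the length and GC correction. Thbs1, thrombospondin 1, measured 4254, 4614 and 4162 CPM at 2 kPa and 5917, 6044 and 7534 CPM at 20 kPa, a log2 fold change of 0.58 ± 0.11 (adjusted p = 0.00275), and Tnc, tenascin C, rose by 0.28 ± 0.08. Fn1, the most abundant of these genes, was lower in every stiff sample, at 53352, 56695 and 48816 CPM against 43635, 44298 and 47111 CPM, but did not pass the test (adjusted p = 0.185).

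Cartilage genes moved with these lists. Besides Acan, Col9a1 was called lower, at 238, 304 and 343 CPM against 180, 186 and 183 CPM, while Col2a1, the main collagen of cartilage, measured 2423, 3169 and 3261 CPM against 2396, 2428 and 2426 CPM and did not pass the test (adjusted p = 0.151). Col10a1, the collagen of hypertrophic cartilage, fell from 147, 140 and 144 CPM to 70.0, 70.7 and 75.6 CPM (log2 fold change -1.0 ± 0.09, adjusted p = 1.26e-05). The part of cartilage cells in the lower matrix genes was not tested.

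Enzymes that cut or crosslink matrix moved in both directions, with 6 of 28 proteases and inhibitors called higher and 7 lower. The count higher was 3 without 20-kPa replicate 3. Adamts9, an aggrecanase on chr6:92772699-92943492 of GRCm38, had the second lowest p of all genes. It measured 96.4, 84.5 and 74.3 CPM at 2 kPa and 35.1, 34.0 and 34.0 CPM at 20 kPa, a log2 fold change of -1.31 ± 0.09 (adjusted p = 1.41e-06). Adamts15 fell by 1.17 ± 0.16 and Mmp13, collagenase 3, by 1.11 ± 0.28, but Adamts5, the aggrecanase best known from joints, rose from 40.9, 55.6 and 47.4 CPM to 109, 87.3 and 86.8 CPM. The inhibitor Timp1 rose from 489, 535 and 503 CPM to 674, 702 and 839 CPM (log2 fold change 0.54 ± 0.09, adjusted p = 0.00184), and Mmp2, gelatinase A, fell by 0.35 ± 0.08. Of 23 crosslinking and collagen processing enzymes 3 were called higher and 2 lower, of which Loxl2 rose by 0.42 ± 0.08 and the transglutaminase Tgm2 fell by 0.59 ± 0.09. Of 30 proteoglycan and hyaluronan genes 2 were called higher and 6 lower, the latter 3 without 2-kPa replicate 2 and 3 without 20-kPa replicate 1. The collagen-binding Lum fell from 884, 904 and 1021 CPM to 680, 557 and 545 CPM (log2 fold change -0.66 ± 0.14, adjusted p = 0.00544). The hyaluronan synthase Has2 fell by 0.28 ± 0.07, while Has1 rose by 1.11 ± 0.25 on levels below 5 CPM.

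Lysosomal genes that were called were all lower on the stiff gel. Of 39 tested, 12 were called lower and none higher, with a median log2 fold change of -0.19, and leaving out single samples gave between 5 and 10. Hexa, a hexosaminidase, fell from 241, 228 and 229 CPM to 182, 172 and 171 CPM (log2 fold change -0.41 ± 0.07, adjusted p = 0.000968). The cathepsins Ctsb and Ctsf and the glucosidase Gaa fell by 0.38 ± 0.10, 0.44 ± 0.08 and 0.36 ± 0.07. The lowest count came without 2-kPa replicate 1, and 6 were called without either 20-kPa replicate 2 or 20-kPa replicate 3. Of 22 genes of fatty acid synthesis and fat cell identity 6 were called lower and 1 higher. Cebpa, a transcription factor of fat cells, measured 29.4, 27 and 23.3 CPM at 2 kPa and 15.3, 13.8 and 15.7 CPM at 20 kPa (log2 fold change -0.83 ± 0.09, adjusted p = 6.63e-05), and Fabp4, a fatty acid carrier, 10.8, 9.80 and 7.91 CPM against 4.86, 5.25 and 5.97 CPM. The adipocyte markers summed to between 33.4 and 35.3 CPM on the soft and between 24.2 and 27 CPM on the stiff gel, with Cidec and Lep at 0 in all 6 samples. The part of such cells was not tested.

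The lists of general cell functions differed in their shares of calls. The edgeR test called 0 of 79 nuclear genes of oxidative phosphorylation on elastic gels, where 6 had an unadjusted p under 0.05 and DESeq2 called 3. It called 0 of 8 mitochondrially encoded genes and 0 of 5 alpha-arrestins, with 0 at an unadjusted p under 0.05 and 0 by DESeq2 in both lists. Of 84 cytosolic ribosomal protein genes 4 were called higher, and all 84 had a positive log2 fold change with a median of 0.14. DESeq2 called 14 of them and a fit of the 6 elastic samples alone 24, while the count was 0 without 2-kPa replicate 1 and 1 without any other single sample except 20-kPa replicate 1. The 25 cholesterol synthesis genes gave 1 call by edgeR and 6 by DESeq2, and the 34 proteasome subunits 3 higher by edgeR and 6 by DESeq2. Of 30 genes of glycolysis and hypoxia 4 were called higher and 1 lower. The count higher was 7 by DESeq2, 9 with the length and GC correction, 1 without 2-kPa replicate 1, 2-kPa replicate 3 or 20-kPa replicate 3, and 2 without 20-kPa replicate 2. Enzymes that modify histones and DNA gave 5 higher and 7 lower of 59. The count higher was 1 without 2-kPa replicate 3 or 20-kPa replicate 3, 2 without 2-kPa replicate 1 or 2-kPa replicate 2 and 3 without 20-kPa replicate 2. The deacetylase Hdac7 rose from 46.7, 46.9 and 46.5 CPM to 54.4, 60.9 and 58.8 CPM (log2 fold change 0.31 ± 0.05, adjusted p = 0.00148). Tet1, which oxidizes methylcytosine, fell by 0.66 ± 0.14, the methyltransferase Dnmt3a by 0.30 ± 0.05 and the demethylase Kdm6b by 0.32 ± 0.06.

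Of 26 surface markers that divide fibroblasts into subtypes, 9 were called higher and 2 lower. Thy1, the pan-fibroblast marker CD90, rose from 222, 203 and 180 CPM to 287, 261 and 292 CPM (log2 fold change 0.47 ± 0.10, adjusted p = 0.00447). The progenitor markers Ly6a and Cd34 rose by 0.47 ± 0.11 and 0.61 ± 0.11, and Anxa3, an annexin, from 70.3, 74.3 and 71.9 CPM to 116, 132 and 163 CPM (log2 fold change 0.93 ± 0.10, adjusted p = 6.57e-05). Fap, fibroblast activation protein, fell from 28.0, 24.7 and 20.7 CPM to 9.90, 10.2 and 15.9 CPM, a log2 fold change of -1.03 ± 0.18 (adjusted p = 0.00185). Dlk1, a Notch-related inhibitor of fat cell formation, fell by 0.69 ± 0.09. Of 34 mesenchymal transcription factors 6 were called higher and 4 lower. There were 3 higher without 2-kPa replicate 1, 2 lower without 20-kPa replicate 2 and 1 lower without 20-kPa replicate 3. Among them were Osr2 at -0.90 ± 0.22 and Mkx, of tendon, at 0.57 ± 0.14. The Schwann cell markers summed to between 76.5 and 77.4 CPM on the soft and between 45.8 and 49.5 CPM on the stiff gel, nearly all of it S100b, which cartilage also expresses and which fell from 71.4, 73.3 and 70.9 CPM to 44.1, 40.0 and 43.7 CPM. The keratinocyte list went from between 38.4 and 45.9 CPM to between 58.1 and 71.3 CPM through Trp63 and Perp, the latter also a p53 target, with its keratins below 1 CPM.

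The single genes with the firmest calls lay partly outside these lists. Lratd1 (chr12:14146830-14152054 of GRCm38), whose protein has an LRAT domain, had the lowest p of all, at 70.8, 62.9 and 60.1 CPM against 20.8, 24.1 and 24.1 CPM and a log2 fold change of -1.49 ± 0.10 (adjusted p = 1.41e-06). Enpp2, autotaxin, which makes the lipid mediator lysophosphatidic acid, measured 29.4, 23.1 and 22.8 CPM on the soft and 6.82, 8.35 and 7.37 CPM on the stiff gel. It had the largest fall of the 12 genes with the lowest p among those lower, -1.74 ± 0.15 on the log2 scale (adjusted p = 1.49e-05). Chst2, a sulfotransferase, fell by 1.26 ± 0.10, Fzd9, a WNT receptor, by 1.04 ± 0.09, the cadherin Cdh19 by 0.96 ± 0.07 and the prostaglandin F receptor Ptgfr by 0.99 ± 0.09. Car3, a carbonic anhydrase of fat and muscle, fell most of all genes above 1 CPM, but on 1.64, 0.857 and 0.659 CPM against 0.233, 0.114 and 0.247 CPM. Among those that rose, Epb41l3, a membrane skeleton protein, went from 158, 168 and 163 CPM to 238, 223 and 235 CPM (log2 fold change 0.51 ± 0.05, adjusted p = 5.01e-05). Trim16 rose by 0.72 ± 0.07, Basp1, a membrane protein of growing neurites, by 0.51 ± 0.05 and Fam111a, a protease at replication forks, by 0.63 ± 0.07. Siglecg, a sialic acid receptor best known from B cells, measured 1.79, 1.79 and 1.59 CPM on the soft and 4.79, 5.36 and 6.31 CPM on the stiff gel (log2 fold change 1.67 ± 0.19, adjusted p = 7.75e-05). The proliferin genes Prl2c3 and Prl2c4, near-identical copies, had the same counts in every sample and are uncertain as separate genes, both at a log2 fold change of 1.71 ± 0.22.

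**Figure D3:**
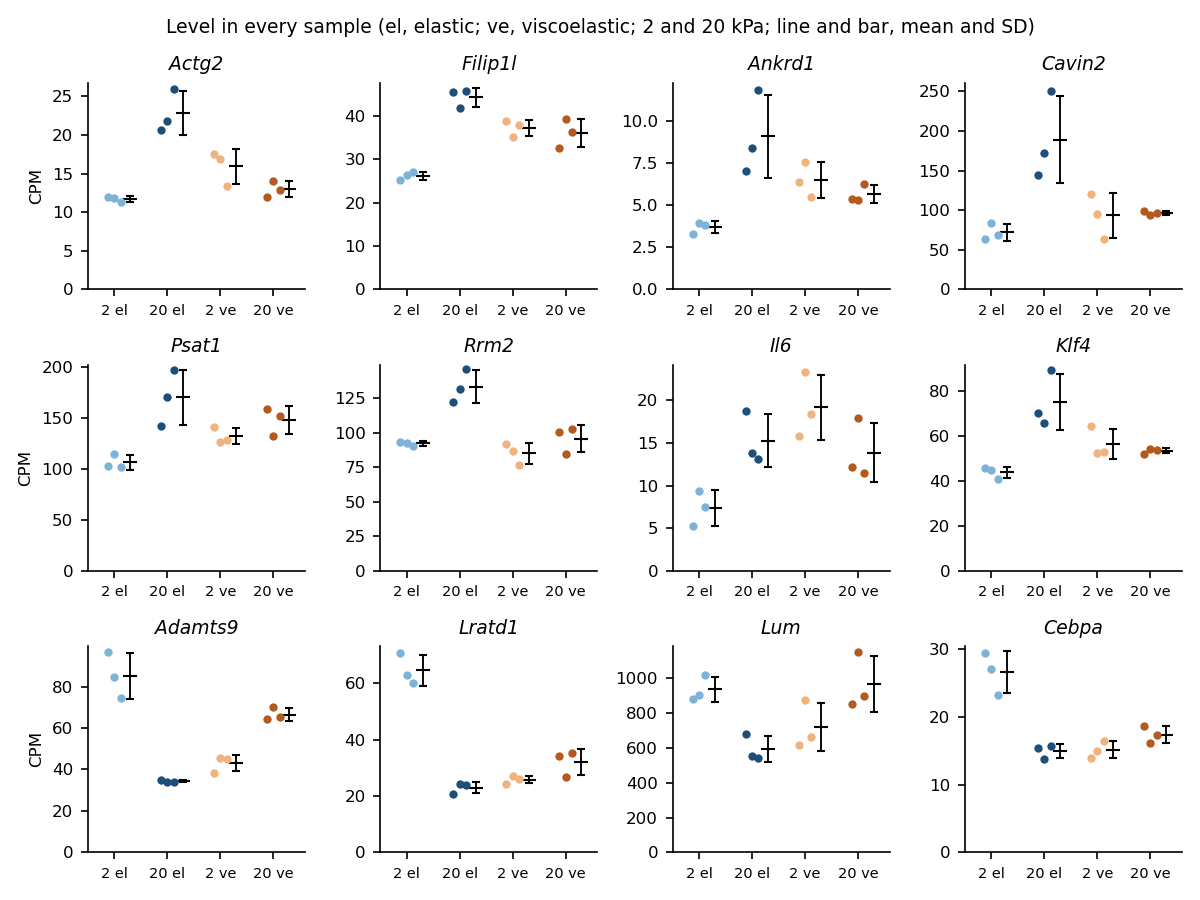
Levels of 12 genes in CPM in each of the 12 samples, by group, with the group mean and SD beside the 3 points. Actg2, Ankrd1 and Rrm2 are highest on 20-kPa elastic gels, whereas Adamts9, Lratd1 and Cebpa are highest on 2-kPa elastic gels.

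Fewer genes in all were called between 20 and 2 kPa where the gel relaxed. On viscoelastic gels the same fit called 331 genes, 2.28% of those tested, but this count depended on single samples. It was 9 without 20-kPa viscoelastic replicate 3, 36 without 20-kPa replicate 1, 127 without 2-kPa replicate 1 and 219 without 2-kPa replicate 2, and DESeq2's Wald test called 768. The difference between the responses was itself called for 1100 genes (7.56%), and for 670 without 2-kPa elastic replicate 1 and 727 without 20-kPa viscoelastic replicate 1. Some lists had more calls on viscoelastic gels, among them the ribosomal proteins with 15 of 84 higher against 4 on elastic gels. The difference between gel types was called for 0 of these 84, and DESeq2 called 14 of them higher on elastic gels. Of the nuclear oxidative phosphorylation genes 16 of 79 were called higher on viscoelastic gels against 0 on elastic gels. The difference between gel types was called for 8 of these 79. Of the 2029 genes called on elastic gels, 821 (40.5%) had a response that differed on viscoelastic gels. Their selection favoured them here, because the difference is computed with the same elastic samples. This share is therefore not compared with the 7.56%. In the contractile list 15 of 35 members had a lower response on viscoelastic gels. Of all tested genes 3.12% were called in that direction. The contractile and chemokine lists had 20 of 35 and 9 of 27 members called higher on elastic gels, in samples that enter the difference too. The lists were also chosen with earlier results known, so their counts here are not compared with the 3.12%. Actg2 measured 17.5, 16.9 and 13.3 CPM on 2-kPa and 12, 14.1 and 12.8 CPM on 20-kPa viscoelastic gels, a response lower than on elastic gels by 1.26 ± 0.15 on the log2 scale (adjusted p = 0.000228). In the chemokine list 8 of 27 differed in the same direction, with Il6 lower by 1.52 ± 0.29 (adjusted p = 0.00569). The difference was called lower for 1 of 43 replication genes and 4 of 36 mitotic genes, 2.33% and 11.1% of these lists. Its sign was nevertheless negative for 38 of the 43 and for all 36, with medians of -0.15 and -0.28 beside -0.27 in the contractile list. The median responses of these 2 lists on viscoelastic gels were 0.15 and 0.06, and edgeR and DESeq2 each called 0 members there, with 10 replication genes and 1 mitotic gene at an unadjusted p under 0.05.

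Of the 6 genes with the lowest interaction p among those that responded more positively on viscoelastic gels, all fell on elastic gels and 5 rose on viscoelastic gels. The exception was Lratd1, at an adjusted p of 0.0989 on viscoelastic gels. Adamts9 went from 38.5, 45.5 and 45.0 CPM to 64.2, 70.0 and 65.2 CPM there, so that its log2 response was higher by 1.93 ± 0.12 than on elastic gels (adjusted p = 1.35e-06). Lrrn3, a neuronal leucine-rich repeat protein, measured 37.1, 34.5 and 33.4 CPM against 19.0, 16.1 and 17.9 CPM on elastic gels and 14.0, 17.5 and 15.6 CPM against 27.5, 37.4 and 27.8 CPM on viscoelastic gels. Ldlrad3, an LDL receptor-like protein, crossed in the same way, from 88.5, 95.1 and 89.6 CPM to 61.9, 61.2 and 53.3 CPM on elastic gels and from 59.2, 66.8 and 65.5 CPM to 92.1, 90.6 and 92.1 CPM on viscoelastic gels. The reverse crossing occurred for Il31ra, a cytokine receptor of itch, which rose by 0.93 ± 0.13 on elastic gels and fell by 1.04 ± 0.13 on viscoelastic gels, and for Bst1, a cell surface enzyme that hydrolyses NAD, at 1.00 ± 0.14 and -0.92 ± 0.14. Ccdc9b, a gene of little known function, rose by 0.47 ± 0.08 and fell by 0.62 ± 0.08.

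**Figure D4:**
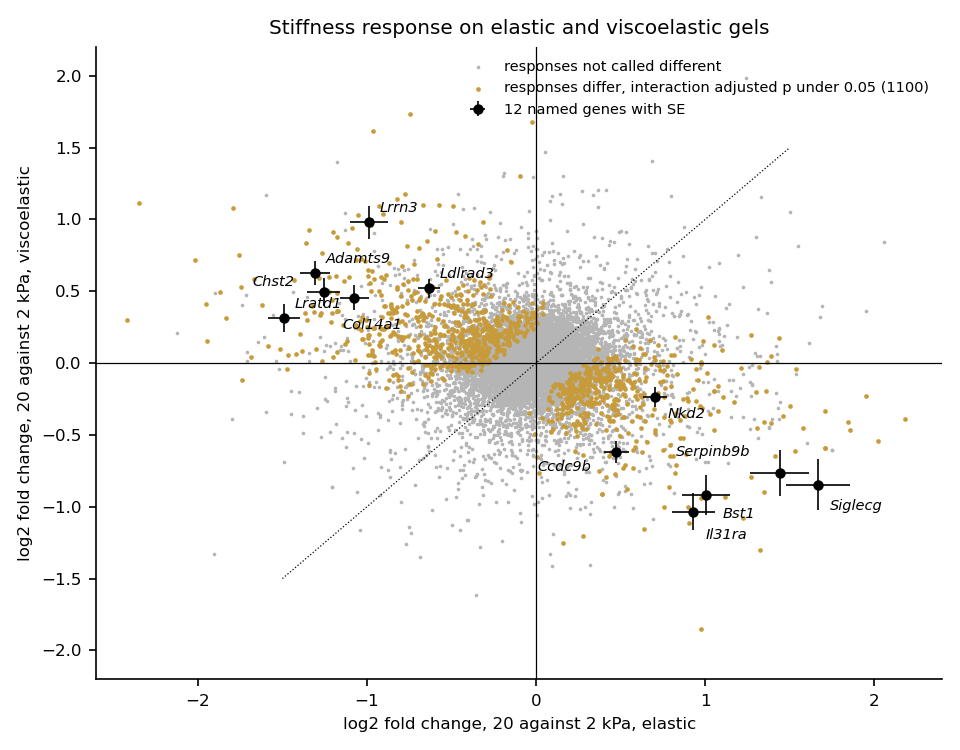
Each point is a tested gene at its log2 fold change between 20 and 2 kPa on elastic gels (x) and on viscoelastic gels (y), with the 1100 genes whose responses differ in ochre and the 12 with the lowest interaction p in each direction combined in black with SE. The dotted line marks equal responses, and Lrrn3, Adamts9 and Ldlrad3 lie at the upper left while Siglecg, Il31ra and Bst1 lie at the lower right.

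The lists divided by which elastic group stood apart from the other 3 groups. For 842 of the 2029 called genes (41.5%) the 3 samples on 2-kPa elastic gels lay outside the range of all 9 other samples, and for 765 (37.7%) those on 20-kPa elastic gels did, against 10.9% and 10.5% of all tested genes. A called gene was favoured in both counts by its selection, so the 2 are compared only with each other. Both also differed by direction. Genes called lower had the soft elastic samples outside for 53.1% and the stiff ones for 26.5%. Genes called higher had 29.4% and 49.4%. All 25 called mitotic genes and 24 of the 26 called replication genes had the stiff elastic samples above the other 9, and none had the soft elastic samples outside. The nuclear envelope list was similar, with 7 of its 9 called members. In the ATF4 list 16 of 18 called members had the soft elastic samples below all others and 2 the stiff ones above. Phgdh shows this, at 27.5, 32.6 and 27.6 CPM on 2-kPa elastic gels and at no less than 36.1 CPM in any other sample. The soft elastic samples also lay outside for 6 of 8 called focal adhesion genes and 5 of 7 immediate early genes. They did so for 8 of 12 lysosomal and 5 of 7 adipogenic genes, 66.7% and 71.4%. The calls of these last lists were all or mostly lower, so their shares stand beside the 53.1% of genes called lower. In the contractile list each pattern occurred in 11 of the 20 called genes, some having both. This division was looked for after the values were seen and carries no test.

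**Figure D5:**
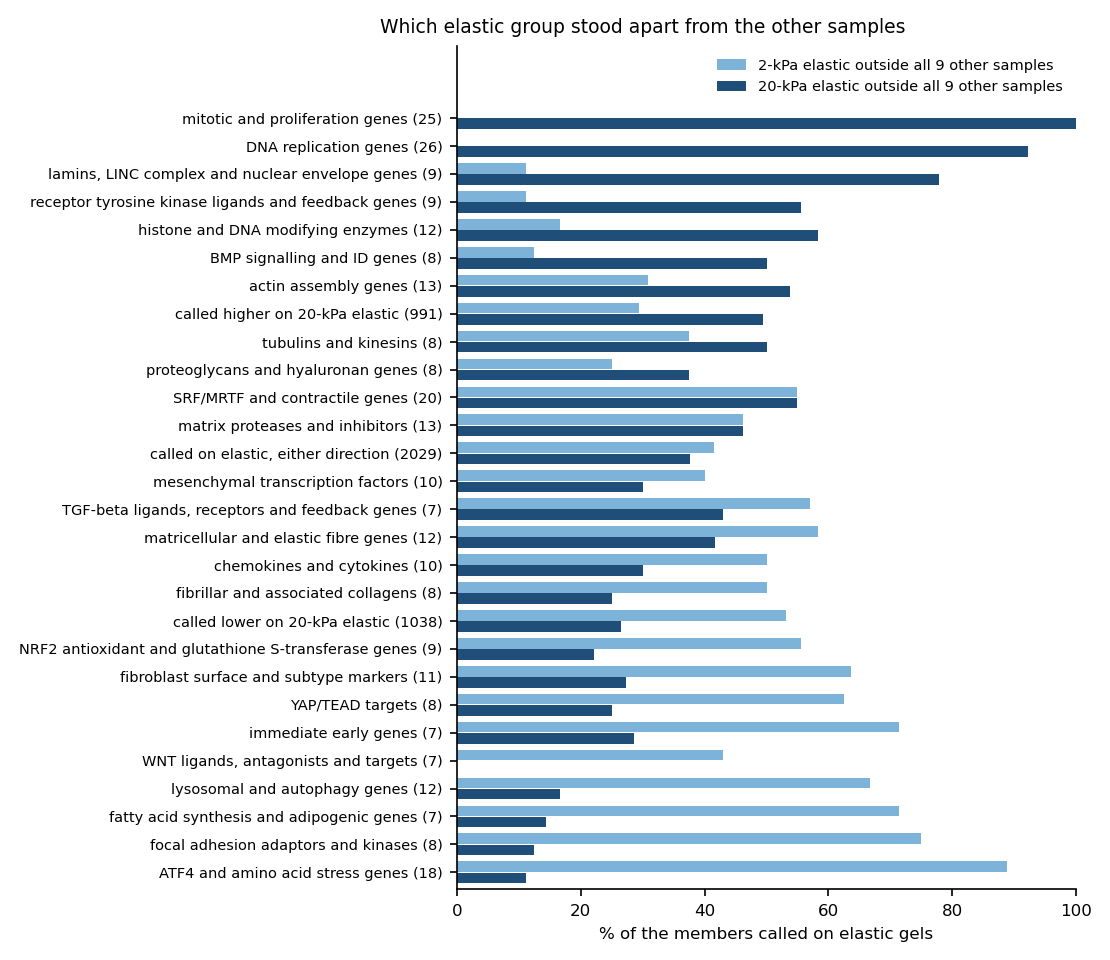
Share of the members called on elastic gels, in percent, for which the 3 samples of 2-kPa elastic (light bars) or 20-kPa elastic gels (dark bars) lay outside the range of all 9 other samples, for each list with 7 or more called members (number in brackets). Mitotic genes are at 100% for stiff elastic gels and ATF4 genes at 88.9% for soft elastic gels.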

How the data were processed

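RNA of 12 samples in 4 groups of 3 was compared. The authors trimmed reads with Trimmomatic, aligned them to mm10 with STAR and counted them per gene with featureCounts, and the raw counts they deposited were used as they stand. Strand setting and treatment of multimapping reads are not given in the sources used here. Genes were kept by filterByExpr (minimum count 10, minimum total 15), normalized by TMM and fitted with edgeR 4.0.16 in R 4.3.3 (quasi-likelihood test, all 12 samples, 1 coefficient per group, BH adjustment, threshold 0.05, two-sided). Errors are SE of the log2 fold change, taken as its absolute value divided by the square root of the F statistic of the quasi-likelihood test. The interaction is the response on viscoelastic minus that on elastic gels. Alternatives used DESeq2 1.42.0, other scalings, no filter, a length and GC correction, a replicate block, the 6 compared samples and each sample left out. Scripts were tested on simulated data.

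Genes named were, among those called with no overlap between stiffnesses, the 12 with the lowest p and the 8 largest changes per direction (at least 1 CPM in the higher group), fixed examples and up to 6 further called members per list, and the 6 lowest interaction p per direction. Marker genes came from 10 cell type lists. The members, the 43 lists and the tests were chosen with earlier results of these data known. Positions and sequences are from GENCODE and RefSeq tables on GRCm38. Some genes are not reported here.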

Additional observations from a re-analysis of the deposited data

Results flagged for a closer look

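Whether the log2 response to stiffness differed by gel type was tested as an interaction (edgeR quasi-likelihood test, adjusted p under 0.05), and 109 of the genes named above passed. Of these 109, 25 missed the threshold in at least 1 alternative fit with the sign kept, 17 of them in fits that kept every sample. With replicate number as a block, 16 missed it. The values below are the viscoelastic response less the elastic one, on the log2 scale. Of all tested genes 7.56% passed the same test. Most named genes were chosen by their response in the same elastic samples or by the interaction itself. That choice favoured them in this test, so their count is not compared with the share of all genes. Among contractile, actin and adhesion genes the response on viscoelastic gels was lower for Actg2 (-1.26), Acta2 (-0.71), Tagln (-0.88), Cnn1 (-0.79), Lmod1 (-1.17), Tpm2 (-0.53), Fhl1 (-0.66), Myh11 (-2.06), Filip1l (-0.80), Tmsb4x (-0.36), Diaph1 (-0.37), Rock2 (-0.50), Zyx (-0.60), Itga3 (-0.62) and Cavin2 (-1.34). In the same families it was higher for Enah (0.45), Tns1 (0.38) and Itga10 (1.03). Of the YAP and TEAD targets it was lower for Ankrd1 (-1.5), Amotl2 (-0.83), Axl (-0.58) and F3 (-0.74). The cell cycle and nuclear envelope genes that differed were Kif2c (-0.42), Tpx2 (-0.39), Tmpo (-0.43), Lbr (-0.49) and Cdkn2b (0.56). Stress and amino acid genes with a lower response were Psat1 (-0.51), Phgdh (-0.46), Trib3 (-0.85) and Hsph1 (-0.59). Growth factor and immediate early genes with a lower response were Ereg (-1.08), Fgf10 (-0.83), Hgf (-0.57), Klf4 (-0.86), Klf2 (-1.04) and Maff (-0.99). Cytokine genes with a lower response were Il6 (-1.52), Cxcl1 (-1.38), Cxcl2 (-2.57) and Csf1 (-0.73). In the TGF-beta, BMP, WNT and IGF pathways the difference was negative for Smad7 (-0.40), Fst (-0.59), Dkk2 (-1.58), Nkd2 (-0.94) and Pappa2 (-1.25). In those pathways it was positive for Tgfb1 (0.59), Tgfb2 (1.62), Tgfbi (0.65), Bmp5 (0.69), Bmper (0.47), Axin2 (1.00), Frzb (0.98) and Igf1 (1.01). Structural matrix and cartilage genes with a positive difference were Col14a1 (1.53), Col27a1 (0.76), Nid2 (1.02), Agrn (0.50), Eln (1.13), Ltbp4 (0.60), Lum (1.09), Col9a1 (1.01), Col10a1 (1.19) and S100b (1.32). Matrix genes with a negative one were Thbs1 (-0.71), Tnc (-0.47), Adamts5 (-0.99), Timp1 (-0.65), Loxl2 (-0.65) and Has1 (-1.34). Proteases with a positive one were Adamts9 (1.93), Adamts15 (1.53), Mmp13 (1.71) and Mmp2 (0.40). Lysosomal and lipid genes differed upward, with Hexa (0.54), Ctsf (0.41), Gaa (0.35), Cebpa (1.03) and Fabp4 (0.90). Chromatin genes had Hdac7 (-0.51), Tet1 (0.70), Dnmt3a (0.34) and Kdm6b (0.34). Fibroblast markers and transcription factors had Thy1 (-0.62), Ly6a (-0.80), Cd34 (-0.83), Anxa3 (-1.11), Fap (1.76), Dlk1 (0.76) and Osr2 (1.49). A lower response was also found for the p53 target Perp (-0.96). Of the remaining single genes those with a positive difference were Lratd1 (1.80), Enpp2 (1.62), Chst2 (1.75), Fzd9 (1.34), Cdh19 (1.01), Ptgfr (0.92), Car3 (2.72), Lrrn3 (1.97) and Ldlrad3 (1.15). Those with a negative difference were Epb41l3 (-0.67), Trim16 (-0.74), Fam111a (-0.57), Siglecg (-2.51), Prl2c3 (-2.30), Prl2c4 (-2.30), Il31ra (-1.97), Bst1 (-1.92) and Ccdc9b (-1.09).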

How the results depend on the processing

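On elastic gels the number of genes called was 2029, and it was 855 at an adjusted p under 0.01 and 525 with a change of at least 1.5-fold also required. With 1 sample left out it ran from 1063 to 1898. With the other settings tried it stayed between 1731 and 2391, the latter with only the 6 elastic samples in the fit. No called gene changed direction under the 14 alternative fits, and 816 of the 2029 stayed called in all of them. The viscoelastic count of 331 was the least stable. It was 768 with DESeq2's Wald test, 653 without a filter on low counts, 193 with a correction for gene length and GC content, 38 with only the 6 viscoelastic samples, 9 at an adjusted p under 0.01, 60 with at least 1.5-fold, and between 9 and 262 with 1 sample left out. The interaction count of 1100 was 400 at an adjusted p under 0.01 and 606 with at least 1.5-fold, and ran from 670 to 1182 with 1 sample left out. The cause of these shifts was not tested.

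Samples of the same number correlated in their deviations at -0.0502, -0.0178 and -0.16 on elastic gels and at 0.184, 0.308 and 0.0483 on viscoelastic gels. Samples of different number correlated at between -0.0659 and 0.11 on elastic gels and between -0.238 and 0.0805 on viscoelastic gels. The viscoelastic values of same-number samples were all positive, and 0.184 and 0.308 lay above that range. On neither gel type did every pair exceed 0.1, so the numbers were not taken as pairs in the main fit. Whether the viscoelastic samples were made in pairs was not tested. With replicate number as a block 1731 genes were called on elastic gels, 1699 of them among the 2029, 154 on viscoelastic gels and 845 for the interaction. The block with the length and GC correction gave 1790, 75 and 969.

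Of the named genes called on elastic gels, 25 of 137 missed the threshold in at least 1 alternative with the direction kept. Without 20-kPa replicate 3 these included Acta1 (0.50), Cav1 (0.22), Cavin1 (0.24), Ccnd1 (0.33), Mthfd2 (0.41), Tnc (0.22) and Has1 (0.89). Without 2-kPa replicate 1 they included Hgf (0.26), Axin2 (-0.46), Mkx (0.42), Cdkn2b (-0.32) and Ctsb (-0.30), and without 2-kPa replicate 2 they included Trpv4 (-0.43), Mmp13 (-1.07) and Col6a1 (-0.29). Values are log2 fold changes. With a depth of 36626221 or more counts per elastic sample, low genes such as Areg or Car3 still rest on few reads. Among lists not tied to 1 sample, the YAP and TEAD targets called higher numbered 10 without the filter, the collagens called lower 4 with the length and GC correction, the proteases called lower 11 without the filter, and the histone and DNA modifiers called lower 3 with the block and that correction.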
